A study of Homo sapiens with 6 samples.

Results

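The clustered histone genes encode the histones of the nucleosome (H2A, H2B, H3 and H4) and the linker histones (H1). They were followed here in 2 subclones of DLD-1, a human cell line from a colon cancer. A gene was taken when the array's annotation gave a probe set (a group of short probes for 1 transcript) a single symbol of the forms H2AC, H2BC, H3C or H4C with a number, or H1- with a number. For a gene with several probe sets, the one with the highest mean over all 6 arrays stood for it, so only that mean entered the choice. This gave 45 of the 19775 genes tested: 9 H1, 8 H2A, 13 H2B, 7 H3 and 8 H4 genes. Of these, 40 lie on chromosome 6 and 2 on chromosome 1, where the histone clusters are. The other 3 are linker histone genes outside the clusters, H1-8 and H1-10 on chromosome 3 and H1-7 on chromosome 12. A further 28 protein-coding genes with such symbols were not members: 19 were named only on probe sets that list several genes, and 9 were not analysed here.

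Most histones of these clusters are made in S phase, when new DNA has to be packed. Their messenger RNAs usually end in a short stem-loop that the protein SLBP binds, and carry no poly(A) tail. Some of the genes also give polyadenylated transcripts, and these are known from differentiating cells and cells that have left the cycle. Arrays of this type are commonly hybridised with RNA copied from the poly(A) tail. The labels do not name the primer used here, so the values cannot be assigned to either form of the messenger.

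The subclones carry the labels DLD-1α-Cat, with 3 arrays, and DLD-1Δα-Cat, also with 3. Each had been cultured untreated for 96 h in type I collagen at 1 mg/ml. The labels call them subclones of DLD-1, do not spell out Δα-Cat, and do not say whether the 3 samples were separate cultures. P-values therefore rest on the spread among samples that could be technical repeats. CTNNA1, the gene of αE-catenin, differed by -1.52 (SE 0.119, adjusted p = 0.000838), with all DLD-1Δα-Cat arrays lower. Of 10 colon epithelial markers 9 had probe sets at or above the median brightness of all genes, and 0 of 8 fibroblast, 0 of 6 endothelial and 0 of 4 leukocyte markers did. The mean log2 intensity over a list lay at 11.56 to 11.79 on the DLD-1Δα-Cat arrays against 11.63 to 11.68 on the DLD-1α-Cat arrays for the epithelial list. It lay at 4.67 to 4.78 against 4.65 to 5.07 for fibroblast, 4.96 to 5.09 against 5.06 to 5.17 for endothelial and 4.09 to 4.22 against 4.25 to 4.54 for leukocyte markers, and 0 genes of these lists passed the test. A difference below is the log2 mean of DLD-1Δα-Cat less that of DLD-1α-Cat. It comes with limma's standard error (SE) and a p adjusted by Benjamini-Hochberg over all genes tested.

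Sequences in front of 5 of the genes are shown because these genes carry the largest differences (H2BC4, H2BC21 and H4C8), share a start region (H2BC4 and H2AC6) or are the only linker histone that passed the test (H1-2). The sequences come from RefSeq (GRCh38.p14) and run 5′ to 3′ up to the base before the start site. Capitals mark 4 motifs known from histone promoters: the octamer ATTTGCAT, the TATA box TATAAA, the CCAAT box CCAAT and the H1 box AAACACA, each on either strand. The first sequence fills the 245 bases between the divergent start sites of H2BC4 and H2AC6 (chr6:26123927-26124171), on the H2AC6 strand. The others hold 200 bases before H2BC21 (chr1:149886683-149886882, minus strand), H4C8 (chr6:26285535-26285734, minus strand) and H1-2 (chr6:26056471-26056670, minus strand).
H2BC4-H2AC6: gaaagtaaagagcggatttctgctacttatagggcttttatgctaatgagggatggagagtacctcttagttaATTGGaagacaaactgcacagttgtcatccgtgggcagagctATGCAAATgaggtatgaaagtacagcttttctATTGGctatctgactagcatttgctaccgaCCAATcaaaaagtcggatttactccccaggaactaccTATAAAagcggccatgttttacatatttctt
H2BC21: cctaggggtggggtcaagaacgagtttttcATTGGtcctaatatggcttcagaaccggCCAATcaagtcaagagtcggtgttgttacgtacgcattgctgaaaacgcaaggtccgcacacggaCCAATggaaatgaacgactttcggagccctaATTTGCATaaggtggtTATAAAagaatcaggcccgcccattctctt
H4C8: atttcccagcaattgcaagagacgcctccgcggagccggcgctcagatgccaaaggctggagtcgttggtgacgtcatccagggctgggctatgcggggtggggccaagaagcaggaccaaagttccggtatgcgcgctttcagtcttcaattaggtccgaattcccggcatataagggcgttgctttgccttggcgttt
H1-2: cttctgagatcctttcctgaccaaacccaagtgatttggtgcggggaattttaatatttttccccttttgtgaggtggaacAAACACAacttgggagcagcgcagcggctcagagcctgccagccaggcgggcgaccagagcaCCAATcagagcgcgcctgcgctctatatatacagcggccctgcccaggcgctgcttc

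The H2BC21 sequence holds the octamer and the TATA box close together, beginning 46 and 30 bases before the start, and 3 CCAAT boxes further up. The region between H2BC4 and H2AC6 holds 1 octamer, 3 CCAAT boxes and 1 TATA box, which lies 31 bases before the H2AC6 start. In the H4C8 sequence shown, none of the 4 motifs was found, and in that of H1-2 a CCAAT box and the H1 box were. RefSeq start regions (250 bases before to 50 after the start, the first listed start of a gene) matched 43 of the 45 genes. The octamer was found in 6 of 8 H2A and 10 of 13 H2B genes and in 0 of the H1, H3 and H4 genes, against 1.8% of 27305 start regions. The CCAAT box was found in 86% of the 43 and in 35.7% of all, the TATA box in 65.1% and 12%, and the H1 box in 7 of 9 H1 genes and 5.76% of all. Paired genes share much of these letters, so the counts are not independent. Of the 10 genes that rose (below), 5 held the octamer, as did 11 of the 33 others with a sequence. The octamer was found only in H2A and H2B genes, so these 2 shares also depend on the mix of classes. They were not compared within the classes. A match describes letters only and does not show that a factor binds.

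Histone genes that differed were all higher in DLD-1Δα-Cat. Of the 45 genes, 10 rose and 0 fell: 5 H2B genes (H2BC4, H2BC21, H2BC5, H2BC6 and H2BC9), 2 H2A genes (H2AC6 and H2AC15), and 1 each of H3 (H3C6), H4 (H4C8) and H1 (H1-2). Their differences ran from 0.52 to 1.85, or 1.43-fold to 3.59-fold. Over all genes 3.84% were higher and 1.67% lower, against 22.2% and 0 of the histone genes. Most histone genes that rose had bright probe sets. At or above the median brightness of all genes, 8 of 13 histone genes rose, and below it 2 of 32 (H2BC4 and H2AC15). Among all genes these shares were 4.07% and 3.62%. The histone classes were not compared at equal brightness. At an unadjusted p under 0.05 there were 20 of the 45 histone genes and 20.8% of all genes. For 15 histone genes every DLD-1Δα-Cat array lay above every DLD-1α-Cat array, and for 5 every one lay below (14.1% and 13.1% of all genes). The median difference was 0.12 over the histone genes and -0.03 over all genes. Differences lay above 0 for 25 of the histone genes and below 0 for 20. With all 53 probe sets of these genes in a fit over every probe set, 10 were higher and 0 lower, against 1.72% and 0.729% of all probe sets.

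The number of genes that passed depended on single arrays and on the variance model. It was 6 when replicate 1 of DLD-1Δα-Cat was left out and 4 when its replicate 2 was. It was also 4 when DLD-1α-Cat lacked replicate 3, and 7 to 9 when any of the others was left out. No histone gene passed without moderation of the variances, or with the 3′ to 5′ ratio of β-actin, a sign of RNA quality, as a covariate, a setting chosen after seeing the data. Over all genes these settings left 67 and 58 higher genes. The differences themselves are the same without moderation. With the covariate those of H2BC4 (2.02, adjusted p = 0.0516), H2BC5 (0.77), H2BC6 (0.70) and H2BC9 (0.66) were as large or larger. Those of H2BC21 (1.48), H2AC15 (1.09), H2AC6 (0.80), H1-2 (0.42), H3C6 (0.49) and H4C8 (0.89) were smaller, all 10 still above 0. That log2 ratio was higher in DLD-1Δα-Cat, with a mean of 5.20 and an SD of 0.159, than in DLD-1α-Cat, where the mean was 4.69 and the SD 0.291. An exact two-sided permutation test gave p = 0.1, the lowest value that 3 against 3 arrays permit. Because the ratio moves with the groups, the covariate also takes up part of the difference between them. The same ratio for GAPDH lay between 0.51 and 0.82 (exact permutation p = 0.4).

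**Figure D1:**
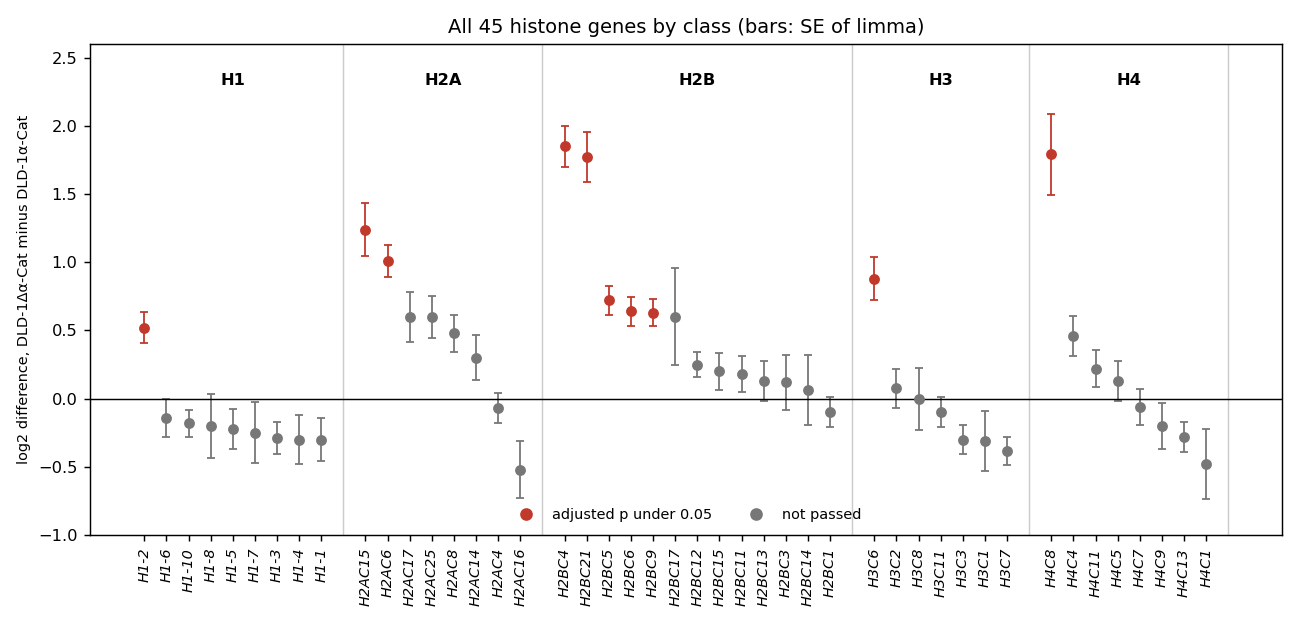
Log2 difference of each of the 45 histone genes (DLD-1Δα-Cat minus DLD-1α-Cat, 3 arrays each), grouped by histone class and sorted within it; bars are the SE of limma and red points passed at an adjusted p under 0.05. The 10 red points all lie above 0, between 0.52 and 1.85, and 7 of them are H2A or H2B genes.

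H2B, which pairs with H2A in the nucleosome, was the class with the most calls, 5 of 13, and 12 of the 13 differences lay above 0 (median 0.25). H2BC4 stood at 7.11, 6.90 and 6.67 on the DLD-1Δα-Cat arrays and at 4.89, 5.02 and 5.25 on the DLD-1α-Cat arrays. The groups lay well apart, a difference of 1.85 (SE 0.149, adjusted p = 0.000927), but the probe set was dim. Its mean over the 6 arrays was 5.97, below the median of 7.82 over all genes. H2BC21, a gene of the chromosome 1 cluster known for a polyadenylated transcript, stood at 12.58, 12.53 and 12.17 against 10.43, 11.01 and 10.54. Every DLD-1Δα-Cat array exceeded every DLD-1α-Cat array by more than 1 log2 unit (difference 1.77, SE 0.183, adjusted p = 0.00272). Both genes passed in each of 6 refits, every one made without 1 of the arrays.

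H2BC5, H2BC6 and H2BC9 rose less, by 0.72 (SE 0.103, adjusted p = 0.00998), 0.64 (SE 0.104, adjusted p = 0.0166) and 0.63 (SE 0.0997, adjusted p = 0.0148). Their DLD-1Δα-Cat arrays lay at 12.52 to 12.77, 12.02 to 12.28 and 10.43 to 10.64, and their DLD-1α-Cat arrays at 11.89 to 11.99, 11.46 to 11.57 and 9.86 to 9.89. The groups did not overlap in any of the 3, and values within a group were close. All of these probe sets carry the x suffix, the maker's mark for probes that can also bind other transcripts, and H2B genes are nearly identical in their coding parts. How much signal the 3 probe sets share was not tested. The other probe set of H2BC5, also with an x suffix, rose as well (0.77, adjusted p = 0.0232 with every probe set tested). H2BC5 passed in 6 of these 6 refits, and H2BC6 and H2BC9 in 3 each. H2BC12, whose probe set is the brightest among the members, stood at 13.75, 13.70 and 13.66 against 13.48, 13.48 and 13.39. It did not overlap between the groups but did not pass (0.25, 95% interval 0.04 to 0.46, adjusted p = 0.171). The other 7 H2B genes, among them the testis histone gene H2BC1 (-0.096), did not pass.

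**Figure D2:**
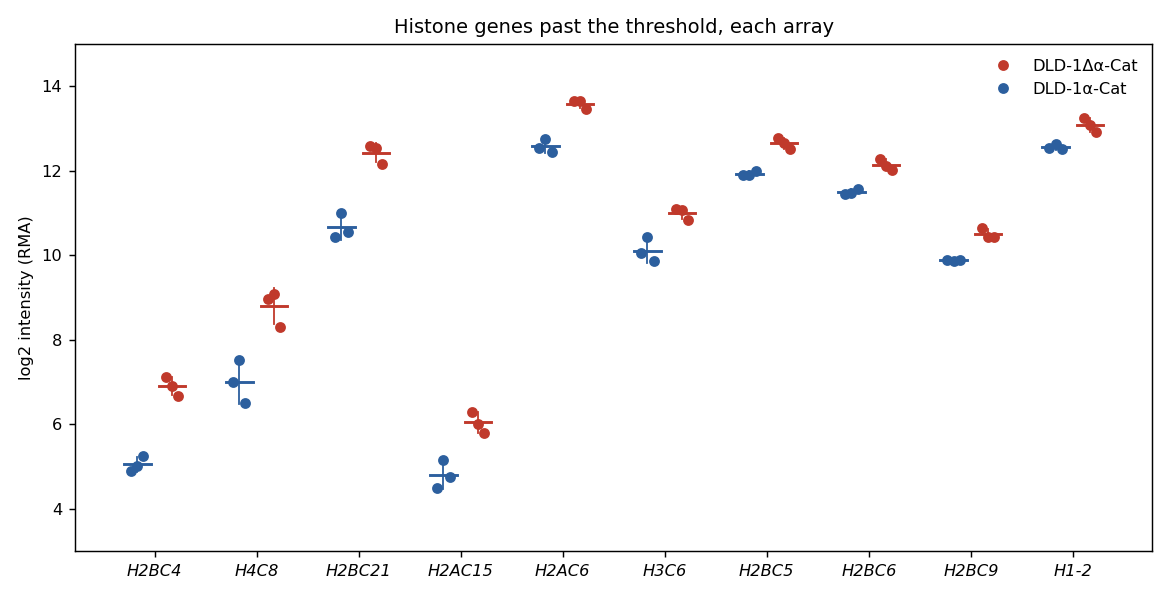
Log2 intensity (RMA) on each of the 6 arrays for the 10 histone genes that passed, ordered by difference; points are arrays, horizontal lines group means and vertical lines SD (n = 3). In every gene the 3 DLD-1Δα-Cat points lie above the 3 DLD-1α-Cat points, from H2BC4 (1.85) to H1-2 (0.52).

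Among 8 H2A genes 2 rose, and 6 differences lay above 0 (median 0.54). H2AC6 stood at 13.66, 13.64 and 13.47 in DLD-1Δα-Cat and at 12.53, 12.75 and 12.45 in DLD-1α-Cat. This was a 2.02-fold difference without overlap (1.01, SE 0.117, adjusted p = 0.00425), and it passed in 6 of these 6 refits. H2AC15 stood at 6.30, 6.01 and 5.80 against 4.49, 5.15 and 4.75 (1.24, SE 0.197, adjusted p = 0.0151). Its other probe set did not pass (-0.10, adjusted p = 0.774 with every probe set tested), and the call held in 4 refits. H2AC25, of a small cluster on chromosome 1 (0.60, adjusted p = 0.0743), and H2AC17 (0.60, adjusted p = 0.117) were higher on every DLD-1Δα-Cat array yet missed the threshold. Both passed once the replicate number entered limma as a block, with adjusted p = 0.0293 and 0.0410. The other probe set of H2AC25 overlapped between the groups (0.28, adjusted p = 0.433 with every probe set tested). H2AC16, the lowest H2A gene, differed by -0.52 (adjusted p = 0.210).

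H3 and H4 genes, whose proteins form the centre of the nucleosome, showed 1 rise each. H3C6 stood at 11.09, 11.06 and 10.84 against 10.06, 10.42 and 9.86 (0.88, SE 0.159, adjusted p = 0.0228). Its other probe set did not pass (0.23, adjusted p = 0.453 with every probe set tested). H4C8 stood at 8.96, 9.09 and 8.30 against 6.99, 7.52 and 6.49. The spread within each group was wide, with SD 0.423 and 0.516, but the groups stayed apart (1.79, SE 0.296, adjusted p = 0.0174). The other probe set of H4C8 differed by 1.18 and did not pass (adjusted p = 0.149 with every probe set tested). H4C8 passed in 3 and H3C6 in 1 of these 6 refits. The other 6 H3 genes lay between -0.38 (H3C7, adjusted p = 0.0833) and 0.075, and the other 7 H4 genes between -0.48 (H4C1, adjusted p = 0.333) and 0.46 (H4C4, adjusted p = 0.123).

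The linker histone H1, which binds the DNA that enters and leaves the nucleosome, showed 1 rise. H1-2 stood at 13.25, 13.08 and 12.91 in DLD-1Δα-Cat and at 12.54, 12.63 and 12.52 in DLD-1α-Cat. It passed narrowly (0.52, SE 0.114, adjusted p = 0.0459), in 0 of these 6 refits, and missed the threshold with the block (adjusted p = 0.0510). The other 8 H1 genes all lay below 0, between -0.30 and -0.14, and none passed, with 1 of 8 at an unadjusted p under 0.05 (20.8% of all genes). They were H1-1, H1-3, H1-4 and H1-5 of the S phase set, the germ cell histones H1-6, H1-7 and H1-8, and H1-10, a linker histone made outside S phase. H1-10 stood at 9.29, 9.44 and 9.22 against 9.55, 9.45 and 9.49. These values do not overlap, but the difference did not pass (-0.18, 95% interval -0.42 to 0.05, adjusted p = 0.347).

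Of the 10 genes that rose, 5 have probe sets with an s or x suffix. H2BC21 and H2AC6 carry the s suffix, which marks a shared design, and H2BC5, H2BC6 and H2BC9 the x suffix. When such probe sets were left out, 4 genes rose: H2BC4, H2AC15, H3C6 and H4C8. H1-2, whose probe set has no such suffix, then missed the threshold (0.52, adjusted p = 0.0554).

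Many H2A and H2B genes lie head to head and share a start region. In 4 such pairs both genes were members, with 193 to 245 bases between their start sites. In the pair H2BC4 and H2AC6 both genes rose (1.85 and 1.01). In H2AC15 and H2BC15 the first rose (1.24) and the second did not pass (0.20, adjusted p = 0.429). H2AC14 and H2BC14 (0.30 and 0.063) and H2AC17 and H2BC17 (0.60 and 0.60) did not pass. The partner of H2BC21 is H2AC20, which was not among the members.

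Along chromosome 6 the genes that rose did not form a single block. In the order of the RefSeq gene table, 8 of the 9 lay in the first stretch of the cluster, from H1-2 to H4C8, with genes that did not pass between them, such as H1-4, H3C7 and H4C7. The ninth, H2AC15, lay in the last stretch. The 30 tested genes of other kinds between the first and the last histone gene include butyrophilin, zinc finger and solute carrier genes and the histone pseudogenes H2AC5P and H4C10P. Of these, 1 rose (the zinc finger gene ZNF322, 0.42, adjusted p = 0.0379) and 0 fell, 3.33% against 3.84% of all genes, with a median of 0.086. At an unadjusted p under 0.05 there were 10 of the 30, against 20.8% of all genes. All DLD-1Δα-Cat arrays were higher for 8 and lower for 1, against 14.1% and 13.1% of all genes. The block gave 5 calls among the 30. None of the 30 passed when any 1 of the DLD-1Δα-Cat arrays or DLD-1α-Cat replicate 1 was left out, and 3 passed without DLD-1α-Cat replicate 2.

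**Figure D3:**
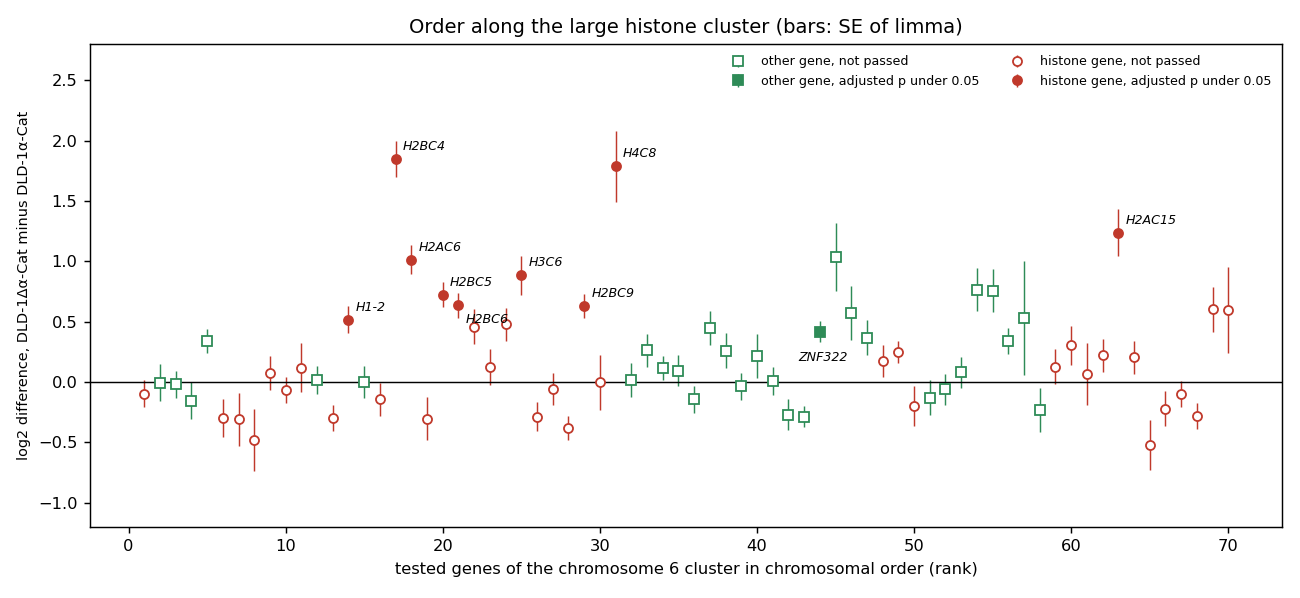
Log2 difference of the tested genes of the chromosome 6 cluster in chromosomal order (rank, not to scale), histone genes as circles and other genes as squares; filled symbols passed and bars are the SE of limma. Filled circles stand between open ones in the first stretch, and H2AC15 stands alone in the last.

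Genes that make histone messengers gave no call. Of 28 measured genes for the transcription and 3′ end processing of histone RNA, 0 passed in either direction, 5 had an unadjusted p under 0.05 against 20.8% of all genes, and the median was -0.043. SLBP, which binds the stem-loop, differed by -0.0035 (adjusted p = 0.990), NPAT, which activates histone transcription at the start of S phase, by 0.090 (adjusted p = 0.677), and LSM11, of the U7 particle, by 0.0017 (adjusted p = 0.996). SNRPE, a core protein of spliceosomal and U7 particles with the brightest probe set of the list, differed by -0.098 (adjusted p = 0.635). The endonuclease CPSF3 differed by -0.090 (adjusted p = 0.605). The ends of the list lay further out, at 0.39 (CSTF2T, adjusted p = 0.0589) and -0.37 (NCBP1, adjusted p = 0.0848), both without overlap between the groups. All DLD-1Δα-Cat arrays were higher for 3 and lower for 6 of the 28, against 14.1% and 13.1% of all genes. With array weights, or without the dimmer genes, 2 of the list passed.

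The replacement histone variants gave no call. Of 10 measured genes on their list, 0 passed and 3 had an unadjusted p under 0.05 (20.8% of all genes). Most of them are made throughout the cycle from polyadenylated messengers, but the list also holds the testis histone gene H3-4. The median of the 10 was -0.18, with 8 of 10 below 0. H2AZ1, with the brightest probe set among them, differed by -0.18 (adjusted p = 0.331), H2AX by -0.22 (adjusted p = 0.269), H3-3A by -0.28 (adjusted p = 0.221) and the centromeric CENPA by -0.50 (adjusted p = 0.159). Of 26 chaperones and other deposition genes 2 fell and 0 rose: CHAF1B, a subunit of the assembly factor CAF-1 that works behind the replication fork (-0.73, SE 0.152, adjusted p = 0.0374), and the importin IPO4, which carries histones into the nucleus (-0.72, SE 0.146, adjusted p = 0.0350). Their list had a median of -0.14, and 4 of the 26 had an unadjusted p under 0.05 (20.8% of all genes). Among all genes 1.67% fell and 3.84% rose. Neither CHAF1B nor IPO4 passed when every probe set was tested, and 0 to 2 of the list passed when an array was left out. The count was 0 when replicate 1 or 2 of DLD-1Δα-Cat, or replicate 1 or 3 of DLD-1α-Cat, was left out, and 1 when replicate 3 of DLD-1Δα-Cat was.

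Genes of S phase and the cell cycle lay mostly on the other side of 0. Of 36, 32 were below 0 (median -0.25), 2 fell and 2 rose. Among all 19775 genes, 10926 were below 0, 1.67% fell and 3.84% rose. At an unadjusted p under 0.05 there were 12 of the 36, against 20.8% of all genes. All DLD-1Δα-Cat arrays were lower for 12 and higher for 3, against 13.1% and 14.1% of all genes. The mitotic genes UBE2C (-0.83, adjusted p = 0.0180) and CCNB1 (-0.62, adjusted p = 0.0354) fell, and the inhibitors of cyclin-dependent kinases CDKN2B (1.34, adjusted p = 0.00107) and CDKN1A, p21 (1.25, SE 0.160, adjusted p = 0.00638), rose. The replication genes PCNA (-0.23, adjusted p = 0.234), RRM2 (-0.23, adjusted p = 0.347) and CCNE1 (-0.51, adjusted p = 0.297) did not pass. The list held 2 to 5 calls when an array was left out, and 2 when replicate 2 or 3 of DLD-1Δα-Cat, or replicate 3 of DLD-1α-Cat, was left out. Whether fewer dividing cells or less RNA per cell underlies these values cannot be told apart in bulk samples.

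**Figure D4:**
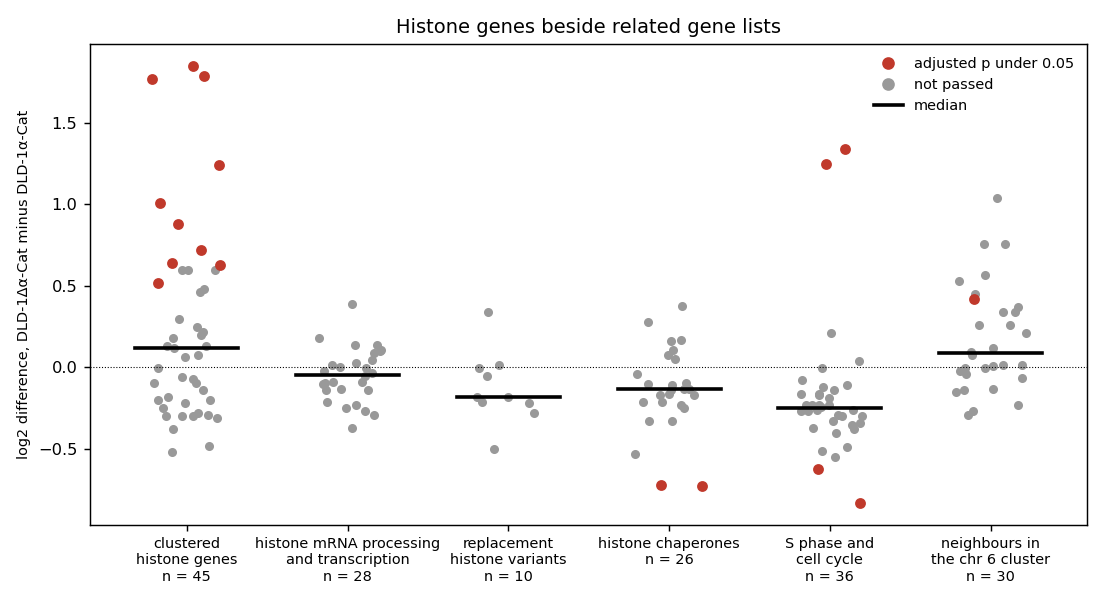
Log2 difference of each gene in 6 groups: the histone genes, 4 related gene lists and the other genes of the chromosome 6 cluster; black lines are medians, red points passed, and the sideways position of a point has no meaning. The median is 0.12 for the histone genes, -0.25 for the S phase and cell cycle list and -0.14 for the histone chaperones.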

How the data were processed

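RNA of 6 samples was hybridised to oligonucleotide arrays with 54675 probe sets. The authors deposited log2 intensities, made by RMA in Expression Console according to the submitters' processing notes; the sources used here give no versions. RMA equalises the arrays' distributions, so a shift common to all RNA is lost.

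Of the probe sets, 62 were controls and left out; the annotation (2016) gave 41091 a single symbol, 1801 several and 11721 none. A gene's brightest probe set stood for it, and dim genes were kept. limma 3.58.1 under R 4.3.3 (both groups in 1 lmFit and eBayes model, two-sided, Benjamini-Hochberg over 19775 genes, threshold 0.05) tested the differences, and was itself tested on simulated data. There it recovered 14% of changes of 0.5 log2 units, 72% of changes of 1 and 98% of changes of 2. A gene or list without a call may therefore still differ. The members and lists were chosen with earlier results of these data known. Text names every member that passed and, in each class, the brightest, highest and lowest, and of each list those that passed, or the brightest if none did; other genes were named after their values were seen. Arrays of one replicate number deviated from their groups together (r = 0.225, 0.376 and 0.122). The numbers in the titles were therefore taken as pairs in the block alternative, a reading of the data that no label states. The reported fit had no block, so its SE and p-values are unpaired. Alternatives were quantile normalization, centring, a filter on dim genes, other probe set choices and variance models, array weights, the block, and leaving out each array.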

Additional observations from a re-analysis of the deposited data

Results flagged for a closer look

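Probe sets that list several histone genes were outside the comparison, since their signal cannot be assigned to 1 gene. Of 20 such probe sets, 6 were higher in DLD-1Δα-Cat and 0 lower in a fit over all probe sets (limma, Benjamini-Hochberg; 1.72% of all probe sets were higher). A probe set for 5 H2B genes (H2BC4, H2BC6, H2BC7, H2BC8 and H2BC10) differed by 1.50 (SE 0.228, adjusted p = 0.0214), and another for the same genes by 0.66 (adjusted p = 0.0347). A further probe set for these H2B genes did not pass (0.56, adjusted p = 0.0562). A probe set for 10 H3 genes differed by 1.22 (SE 0.221, adjusted p = 0.0372), and 1 for 6 H2A genes (H2AC11 to H2AC13 and H2AC15 to H2AC17) by 1.05 (SE 0.147, adjusted p = 0.0155). Another probe set for the same H3 genes (0.088, adjusted p = 0.801) and another for the same H2A genes (0.42, adjusted p = 0.217) did not pass. A probe set that lists these H3 genes and H2AC7 did not pass either (0.24, adjusted p = 0.396). H2AC18 and H2AC19, a duplicated pair on chromosome 1, share 3 probe sets, at 0.96 (adjusted p = 0.0356), 0.94 (adjusted p = 0.0391) and 0.93 (adjusted p = 0.0524). None of the 5 probe sets for 14 H4 genes passed, with differences from -0.13 to 0.22. Some of these probe sets name genes that were also members, so they are not independent of the rises above.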

How the results depend on the processing

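With the replicate number as a block 11 histone genes were higher, 9 of the 10 reported among them; H1-2 lost its call, H2AC25 and H2AC17 gained one, and 5 neighbours passed. Array weights gave 549 lower genes in all, 3 neighbours and 2 processing genes. The variance trend gave 1150 higher and 564 lower genes in all and 4 neighbours. No moderation gave 67 and 48 in all, 0 histone genes, 0 of their probe sets, 0 chaperones and 1 cell cycle gene. With the β-actin ratio as a covariate, added after seeing the data, these counts were 58, 26, 0, 0, 0 and 1, with 0 neighbours, and the difference of H2AC16 turned from -0.52 to 0.0018 without a call on either side. Testing every probe set left 196 lower genes in all, 0 chaperones and 0 neighbours. Leaving out s and x probe sets left 4 histone genes and 0 neighbours. Without the genes below the median brightness, the median over the 13 histone genes left was 0.627, because the dimmer ones were gone, and 2 neighbours and 2 processing genes passed. Where no cause is named, it was not tested. In the runs without an array there were 323 to 854 higher and 116 to 348 lower genes in all, 4 to 9 histone genes, 2 to 8 of their probe sets (10 of 53 with all arrays), 0 to 2 chaperones, 2 to 5 cell cycle genes and 0 to 3 neighbours. The histone median lay between -0.001 and 0.217 there. The count of lower histone genes was 0 in the reported fit and in each of these alternatives, and in quantile normalization, centring and the mean of probe sets. Leaving out an array leaves 2 in its group, and no detection calls were used to set a limit on dim signal.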

Other observations

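Among close relatives of the histone genes that the symbols left out, H2BC12L, an H2B gene on another chromosome with an x-suffix probe set, rose (0.54, SE 0.109, adjusted p = 0.0341). The pseudogenes H1-9P (-0.23), H2AC5P (0.017) and H4C10P (-0.23) and the antisense gene H1-10-AS1 (0.053) did not pass. Nor did the testis histone gene H3-4 (-0.21), which was also counted in the list of replacement variants.

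The sequence a probe set was designed on, as the annotation lists it, varied with the calls, a split looked at after the values were seen. Of the 33 member genes represented by a probe set designed on a RefSeq messenger, 3 rose (H2BC21, H2BC6 and H2BC9). Of the 9 designed on another sequence 5 rose, with a median difference of 0.60, and of the 3 with none listed 2 rose. Probe sets at or above the median brightness of all genes were 6 of the 33, 5 of the 9 and 2 of the 3. The split by design therefore also divides the genes by brightness, and the 2 were not tested apart. Of the 4 genes that rose and have 2 probe sets, 3 (H3C6, H4C8 and H2AC15) passed with the one used and not with the other, and H2BC5 passed with both.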
